A study of Mus musculus with 2 samples.

Results

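The genes that carry the Hippo signal in the nucleus were examined in mouse morulae after knock-down of Nat10. They were taken by symbol from a list of 7, namely the co-activators Yap1 and Wwtr1, the DNA-binding factors Tead1, Tead2 and Tead3 (without Tead4), their partner Vgll4, and the target gene Ccn2. Of the 7, 6 have a row among the 12836 genes of the deposited table, and Tead3 was not analysed here. All embryos were of the strain ICR, per the labels, and all were injected. In the knock-down group the injected double-stranded RNA (dsNat10) targeted Nat10, the enzyme that writes N4-acetylcytidine into RNA, and in the control group it (dsGFP) targeted GFP, which mice lack. The labels give the number of sequenced morulae as 50 without saying if each pool held that many. Each group had 1 library of pooled embryos, so each value describes these libraries and no difference below has a replicate check or a p-value.

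In the Hippo pathway a chain of kinases, active in the inner cells of the morula, phosphorylates Yap1 and Wwtr1 and keeps them in the cytoplasm. In outer, polar cells the kinases are held off, and both co-activators enter the nucleus. Neither binds DNA alone. They dock on Tead factors, which recognise a short DNA motif, and switch on genes such as Cdx2 and Gata3 that lead outer cells toward the trophectoderm, the wall of the blastocyst. Vestigial-like proteins such as Vgll4 occupy the same face of the Tead factors. Much of this control acts on protein location and phosphorylation, which messenger RNA levels do not show.

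The libraries held 28303119 (dsNat10) and 29139232 (dsGFP) reads, and 20.7% of the 12836 genes were at 0 in dsNat10 against 3.57% in dsGFP. Levels are given as CPM, reads per 1000000 reads, or as TPM, which also divides by gene length and is the scale used to set one gene against another. Nat10, the injected target, had 37 reads in dsNat10 against 886, 23.7-fold fewer by CPM (95% counting interval 17.1 to 33.9). Of 12 morula markers, 11 are in the table, and their summed level was 18574 TPM in dsNat10 and 16862 TPM in dsGFP, of which Dppa5a alone made up 15850 and 14236 TPM. By the size rule given below, Nanog (3.17-fold lower) and Cdx2 (4.52-fold lower) were called lower and the other 9 neither way. Cdx2 reached the mean level which that rule asks for through dsGFP only, with 3.85 CPM in dsNat10. Of 6 oocyte markers, 3 are in the table, with summed levels of 44.9 and 6.52 TPM. Zp3 had 642 reads in dsNat10 and 106 in dsGFP, H1f8 had 286 and 0, and Gdf9 went the other way with 1 and 54. Of 7 cumulus cell markers, 3 are in the table (23.9 and 27.1 TPM), nearly all of it Amhr2, with Amh and Inhba at 0 in dsNat10. Of 5 blood markers, 3 are in the table (75.2 and 82.5 TPM), and of 5 fibroblast markers only Col1a1 (0 and 0.08 TPM). The part of these cells in the differences below was not tested. In pooled embryos, fewer cells that express a gene and less of its RNA per cell cannot be told apart.

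Yap1 and Wwtr1, close relatives that bind the same Tead factors, differed in opposite directions. Yap1 (GRCm38 chromosome 9, 7931999 to 8004638, Entrez gene 22601) was counted at 167 reads in dsNat10 and 1992 in dsGFP, or 5.85 and 69.0 CPM. Per length its level was 5.21 TPM in dsNat10 and 26.7 TPM in dsGFP. The dsNat10 library is thus the low one on each scale, by 11.8-fold in CPM (10.1 to 13.9) and by 5.12-fold in TPM (4.37 to 6.03). Wwtr1, also called Taz (chromosome 3, 57455644 to 57575910, Entrez gene 97064), was counted at 3577 reads in dsNat10 and 1324 in dsGFP, or 125 and 45.9 CPM. Its levels were 40.6 and 14.2 TPM. Here dsNat10 is the high library, 2.73-fold in CPM (2.56 to 2.91) and 2.85-fold in TPM (2.67 to 3.04).

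A gene was called by a size rule, which asks for a mean of 5 CPM or more, a log2 ratio of at least 1 in size after adding 1 CPM, and a 95% counting interval of the ratio that excludes equality. By this rule Yap1 (log2 ratio -3.35) and Ccn2 were called lower and Wwtr1 (1.43) was called higher in dsNat10. Among all 8738 genes tested, 15.3% were called lower and 15.2% higher, so a call alone is common in these libraries. A gene with reads in 1 library only can pass the mean filter through that library. Calls are rarer at the abundance of the co-activators. Of 1011 genes whose mean CPM was within 0.3 on the log2 scale of that of Yap1, a limit chosen after the data were seen and used for each gene below, 12.5% were called lower, and 5, Yap1 included, had a ratio as low as its own. Of 777 genes near the mean CPM of Wwtr1, 6.56% were called higher, and 13, Wwtr1 included, had a ratio as high. The plot of ratio against abundance shows where each gene lies in this spread.

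**Figure D1:**
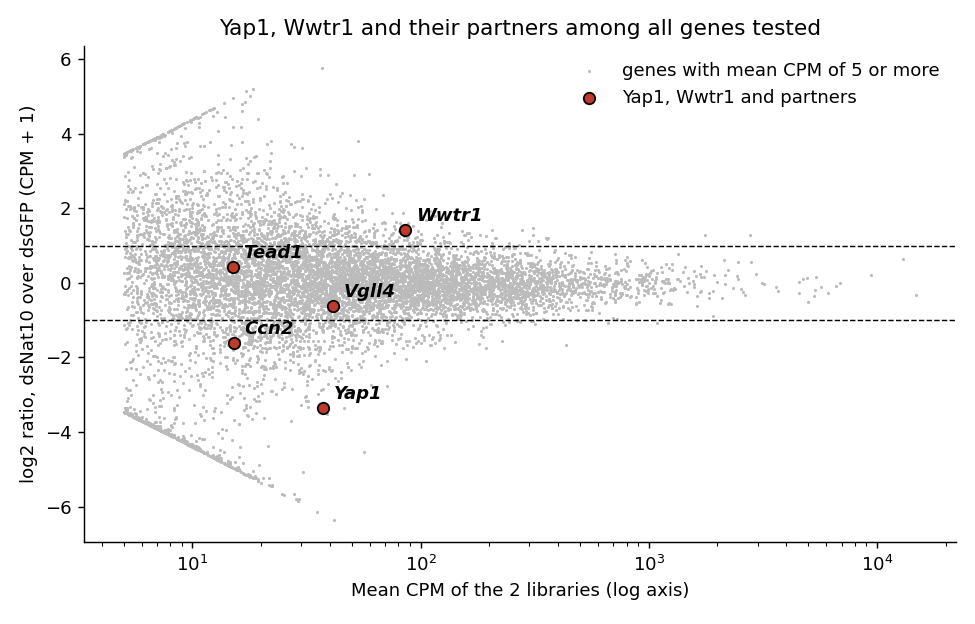
Log2 ratio of dsNat10 over dsGFP after adding 1 CPM (vertical axis) against the mean CPM of the libraries (horizontal log axis), with each grey point 1 of 8738 genes, dashed lines at a log2 ratio of 1 in either direction, and labelled red points for 5 of the 6 genes. Yap1 lies at -3.35 and Wwtr1 at 1.43, both near the edge of the genes of like abundance, while Ccn2 lies where many genes are as low.

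The stretches of DNA before the starts of Yap1, Wwtr1 and Vgll4 are shown because each holds the core letters of the Tead motif, GGAATG, although the levels of these genes differed in different directions. The sequences come from RefSeq on GRCm38.p6, minus strand, read 5′ to 3′. The capitals mark GGAATG. The Yap1 stretch (chr9:8004639-8004846) ends at the edge of the annotated gene, that of Wwtr1 (chr3:57575911-57576160) ends at its gene edge too, and that of Vgll4 (chr6:114969204-114969453) lies within the gene span, outside its annotated exons, before an internal start.
Yap1: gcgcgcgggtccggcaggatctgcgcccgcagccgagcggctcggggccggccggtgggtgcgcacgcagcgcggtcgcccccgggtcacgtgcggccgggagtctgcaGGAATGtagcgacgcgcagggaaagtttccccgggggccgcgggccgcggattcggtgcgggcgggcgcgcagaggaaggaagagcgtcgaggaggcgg
Wwtr1: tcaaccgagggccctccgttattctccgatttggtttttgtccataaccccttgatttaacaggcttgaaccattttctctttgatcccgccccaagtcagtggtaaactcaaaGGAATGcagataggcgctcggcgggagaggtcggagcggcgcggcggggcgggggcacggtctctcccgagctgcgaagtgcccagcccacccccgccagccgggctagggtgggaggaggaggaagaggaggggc
Vgll4: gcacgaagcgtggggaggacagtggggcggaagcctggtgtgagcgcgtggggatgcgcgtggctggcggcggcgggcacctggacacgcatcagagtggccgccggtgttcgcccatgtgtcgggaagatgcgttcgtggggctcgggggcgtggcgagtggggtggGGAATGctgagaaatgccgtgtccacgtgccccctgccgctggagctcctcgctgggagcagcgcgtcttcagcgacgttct

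GGAATG or its reverse complement CATTCC was searched on both strands in the 250 bases before each start. It begins 99 bases before the end of the printed Yap1 stretch, 136 before that of Wwtr1 and 82 before that of Vgll4. The searched Yap1 window runs on for 42 bases inside the gene span, which are not printed. Of the 7 symbols, 5 matched the RefSeq promoter table, and 4 of these (Yap1, Wwtr1, Vgll4 and Tead3) had a match, while the Tead2 window had none. Tead1 and Ccn2 had no entry in that table. Of 27025 genes in the table, 14.4% had a match. The share was 12.2% among genes called lower, 12.2% among those called higher and 12.3% among those called neither. The longer motif ACATTCC, or its reverse complement GGAATGT, which contains the shorter one, was found in 3.75% of genes and in the windows of Yap1 and Tead3. A match is a run of letters and shows no binding.

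The size of the Yap1 difference depends on which gene length the values carry. The length that links a deposited count to its FPKM value was 1657 bases for Yap1 in dsNat10 and 3665 bases in dsGFP, a 2.21-fold difference. For Wwtr1 it was 4553 and 4557 bases, for Tead1 9629 and 9635, and for Ccn2 2218 and 2216, so these genes were divided by nearly the same length in each library. Vgll4 had 3373 and 2767 bases, each more than its longest transcript in GENCODE M21 (2198 bases), so its TPM levels are uncertain too. Of 7761 genes with at least 100 reads in each library, 86.3% had lengths within 5% of each other, and 18 (0.232%), Yap1 included, differed by as much as Yap1. GENCODE M21 lists 10 transcripts of Yap1 from 276 to 5282 bases long, among them coding transcripts of 1193, 4115 and 4171 bases. Which transcripts the reads came from was not tested, since the table holds 1 value per gene. The read-based fold of 11.8 treats the length as equal in the libraries, and the TPM-based fold of 5.12 does not. An exon of Gm20416, a noncoding gene on the opposite strand, overlaps Yap1, and the kit does not mark strand.

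**Figure D2:**
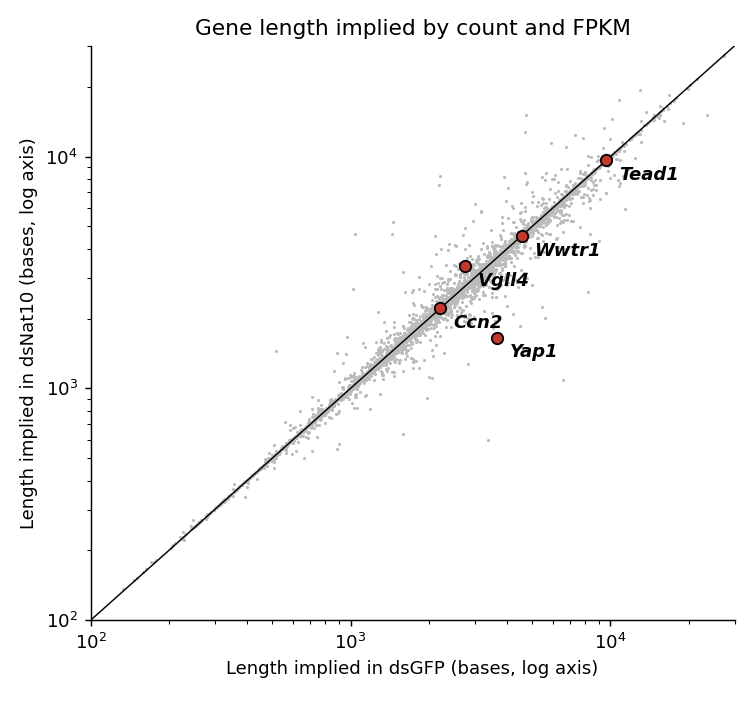
Gene length implied by the deposited count and FPKM in dsNat10 (vertical log axis, bases) against that in dsGFP (horizontal log axis, bases), for 7761 genes (grey) and 5 of the 6 genes (red), with a line of equality. Yap1 lies well below the line at 1657 against 3665 bases, Vgll4 above it, and Wwtr1, Tead1 and Ccn2 on it.

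Summed over both co-activators, the level was close in the libraries while its make-up differed. Yap1 and Wwtr1 together had 45.8 TPM in dsNat10 and 40.9 TPM in dsGFP, a ratio of 1.12 (1.07 to 1.17). In CPM the sums were 131 and 115, a ratio of 1.14 (1.09 to 1.20). Yap1 made up 65.2% of the summed TPM in dsGFP and 11.4% in dsNat10. Counted in reads, with no division by length, Wwtr1 held 39.9% of the reads of both genes in dsGFP (exact binomial 95% interval 38.3% to 41.6%) and 95.5% in dsNat10 (94.8% to 96.2%). The leading co-activator transcript per length was therefore Yap1 in dsGFP, at 1.87 times Wwtr1, and Wwtr1 in dsNat10, at 7.79 times Yap1.

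**Figure D3:**
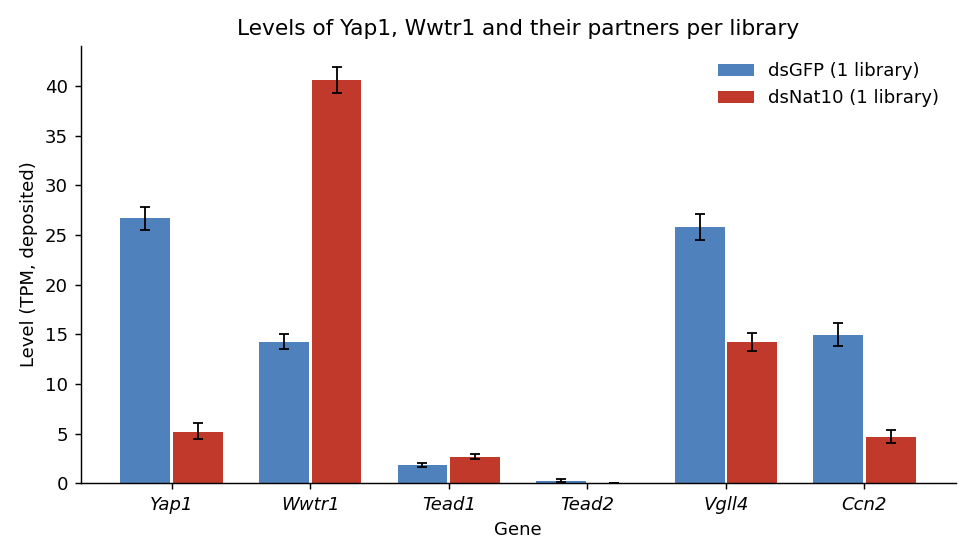
Deposited TPM (vertical axis, from 0) of the 6 genes in the dsGFP (blue) and dsNat10 (red) libraries, with error bars for the 95% counting interval and none where no read was counted. Yap1, Vgll4 and Ccn2 are lower in dsNat10, Wwtr1 is higher, and Tead1 and Tead2 are low in each library.

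Tead1 and Tead2, the DNA-binding partners, were scarce in each library. Tead1 (chromosome 7, 112679356 to 112906784, Entrez gene 21676) stood at 496 reads in dsNat10 and 365 in dsGFP, with levels of 2.66 and 1.86 TPM. It was 1.37-fold higher in CPM (1.20 to 1.58), and the log2 ratio, 0.43, does not reach the size rule. Of 971 genes near its mean CPM, 363 had a ratio at least as high. Tead2 (chromosome 7, 45215792 to 45233468, Entrez gene 21677) had no read in dsNat10 and 8 in dsGFP (0.22 TPM) and was under the mean filter. The 95% counting interval of its ratio allows a difference as small as 1.69-fold. Of 132 genes with a like number of dsGFP reads, 54.5% were at 0 in dsNat10, so a 0 is usual there, and an exon of Cd37 on the opposite strand overlaps Tead2. Summed, Tead1 and Tead2 had 2.66 TPM in dsNat10 and 2.08 TPM in dsGFP (ratio 1.28, approximate interval 1.12 to 1.47).

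Among Tead1, Tead2 and Tead4, most transcript was Tead4 (Tead3 was not analysed here), the factor known to be required for the trophectoderm, with 24.0 TPM in dsNat10 and 71.7 TPM in dsGFP. Tead1 made up 2.52% of the summed TPM of Tead1, Tead2 and Tead4 in dsGFP and 9.99% in dsNat10. The sum was 26.6 TPM in dsNat10 against 73.8 TPM in dsGFP, 2.77-fold lower. Set against it, the summed co-activators stood at 1.72 TPM per TPM of Tead factor in dsNat10 and 0.555 in dsGFP, a comparison added after the values were seen. These are ratios of transcripts and not of proteins.

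Vgll4, whose protein competes with Yap1 for Tead factors, was lower in dsNat10 by less than the size rule asks. Vgll4 (chromosome 6, 114860621 to 114970007, Entrez gene 232334) had an estimated 927.1 reads in dsNat10 and 1453.5 in dsGFP, and 14.2 and 25.8 TPM. It was 1.55-fold lower in CPM (1.43 to 1.69) and 1.82-fold lower in TPM (1.67 to 1.97), with a log2 ratio of -0.62. Of 1009 genes near its mean CPM, 213 had a ratio at least as low. Its counts are fractional, so reads may have been shared out between genes, and its value is uncertain. The other vestigial-like genes went in different directions. Vgll1, which is also able to bind Tead factors, had 795 reads against 304 and was 2.64-fold higher (2.31 to 3.03). Vgll3 had 0 reads against 350, with a counting interval that begins at 93.4-fold lower, yet 17.3% of the 920 genes with a like number of dsGFP reads were also at 0 in dsNat10. Vgll1, Vgll3 and Vgll4 summed to 33.8 TPM in dsNat10 and 35.4 TPM in dsGFP, with Vgll4 at 72.8% of the sum in dsGFP and 42.0% in dsNat10, and Vgll1 at 20.1% and 58.0%. In CPM, not divided by length, Vgll4 led in each library, at 69.0% in dsGFP and 53.8% in dsNat10. Vgll1 held 14.4% and 46.2% of the CPM sum. The leading gene in dsNat10 thus depends on the length used for Vgll4, which is uncertain.

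**Figure D4:**
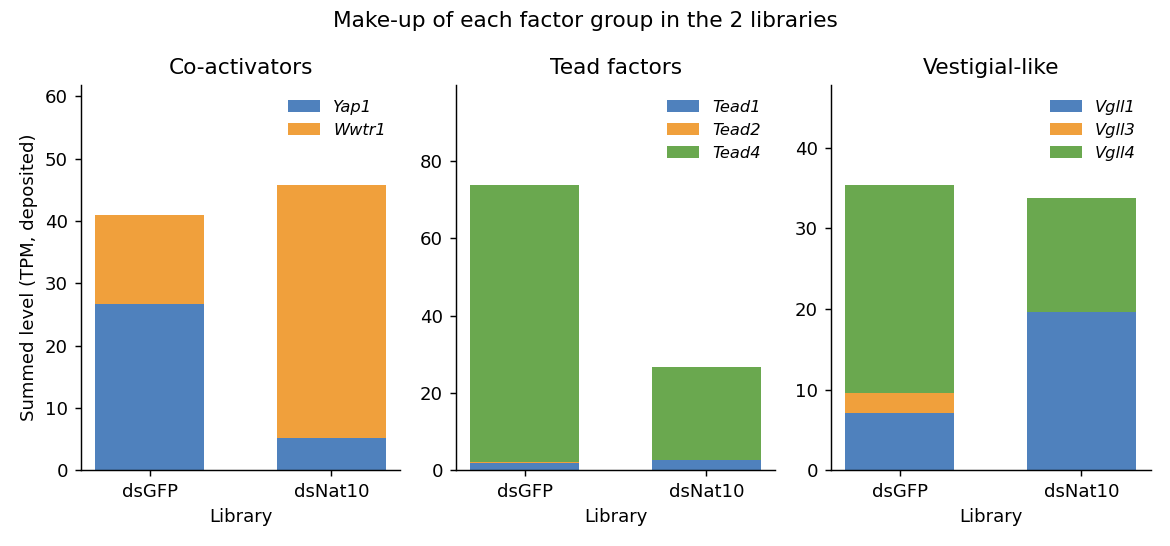
Summed deposited TPM (vertical axes, each from 0 and of different range) in the dsGFP and dsNat10 libraries, split by gene, for the co-activators, the Tead factors in the table and the vestigial-like genes in the table. The co-activator sums are close (40.9 and 45.8 TPM) but change their leading gene. The Tead sum is lower in dsNat10 (26.6 against 73.8 TPM). By TPM the leading vestigial-like gene changes from Vgll4 to Vgll1, while by CPM Vgll4 leads in each library.

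Ccn2, a secreted matrix protein once called Ctgf, is the standard readout of Yap1 activity in cultured cells. Ccn2 (chromosome 10, 24595442 to 24598683, Entrez gene 14219) was counted at 199 reads in dsNat10 and 674 in dsGFP, and 4.64 and 14.9 TPM. It was 3.35-fold lower in CPM (2.86 to 3.95), with a log2 ratio of -1.61. The dsNat10 library is the low one, but of 978 genes near its mean CPM, 23.6% were called lower and 151 (15.4%) had a ratio as low. An exon of the noncoding gene Gm15270 on the opposite strand overlaps it. Its paralogue Ccn1, another matrix protein and target, named after its value was seen, stood at 1442 reads in dsNat10 and 2774 in dsGFP. It was 1.90-fold lower (1.79 to 2.03), which the rule does not call.

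In dsGFP the order of levels per length was Yap1 (26.7 TPM, counting interval 25.5 to 27.9) and Vgll4 (25.8, 24.5 to 27.1), then Ccn2 (14.9, 13.8 to 16.1) and Wwtr1 (14.2, 13.5 to 15.0), then Tead1 (1.86) and Tead2 (0.22). The intervals of Yap1 and Vgll4 overlap, as do those of Ccn2 and Wwtr1. In dsNat10 the order was Wwtr1 (40.6, 39.3 to 41.9), Vgll4 (14.2, 13.3 to 15.1), Yap1 (5.21, 4.45 to 6.06), Ccn2 (4.64, 4.02 to 5.33) and Tead1 (2.66, 2.43 to 2.90), with Tead2 at 0. There the intervals of Yap1 and Ccn2 overlap. These intervals cover counting error only. The place of Yap1 in dsNat10 also rests on its length of 1657 bases there, against 3665 bases in dsGFP. That of Vgll4 in each library rests on a length that is uncertain too. The median log2 ratio was -0.62 for the 5 genes that reached a mean of 5 CPM, against 0.01 over all genes tested.

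Known target genes were called in each direction. In a signature of 22 target genes known from cultured cells, which includes Ccn2, 13 are in the table and 7 passed the mean filter. Of these 7, 2 were called lower and 2 higher (28.6% each, against 15.3% and 15.2% of all genes tested), with a median log2 ratio of -0.09. This tally rests on the filter. Arhgef17, called lower, passed it only through dsGFP, at a mean of 5.09 CPM. Dock5, called higher, passed it only through dsNat10, with 19.8 CPM there and 3.08 CPM in dsGFP. Asap1, with 0 reads against 234, missed it at 4.05 CPM. With no filter, 10 of the 13 had a ratio below 1, against 58.0% of the 12836 genes. Lower were Ccn2 and Arhgef17, the latter with 1 read against 293 (290-fold, counting interval 51.6 to 11493). Higher were Dock5, an activator of Rac GTPases, with 565 reads against 89 (6.41-fold, 5.12 to 8.11), and the kinase Lats2 (2.58-fold, 2.23 to 2.98), which feeds back on Yap1. Amotl2, the most abundant of them and a binder of Yap1 at junctions, had 2062 reads against 2220 and was 1.07-fold lower. Of the 13 in the table, 6, all below the filter and Asap1 among them, were at 0 in dsNat10 and none in dsGFP. Zeros over all genes stood at 20.7% and 3.57%, shares that are not matched for reads. These 6 had 5 to 234 reads in dsGFP. Of genes with dsGFP reads like those of Tead2 (8) and Vgll3 (350), 54.5% and 17.3% were at 0 in dsNat10. An excess of zeros among targets therefore cannot be read from these shares. The 6 zeros are also among the 10 genes with a ratio below 1. Asap1 was named after its value was seen. Of the embryo targets, Cdx2 had 2.90 TPM in dsNat10 and 12.6 TPM in dsGFP and was called lower, while Gata3 had 682 and 493 TPM and was called neither way. Cdx2 passed the filter only through dsGFP, with 17.4 CPM there and 3.85 CPM in dsNat10. Sox2, a gene of inner cells, was not analysed here.

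The Jun and Fos families, whose proteins share enhancers with Yap1 and Tead factors in other cells, had 6 of 7 genes in the table. Of the 6, 4 passed the mean filter. Of these 4, 3 were called higher and 1 lower, against 15.2% and 15.3% of all genes tested, with a median log2 ratio of 1.47. This tally rests in large part on the filter. Jund and Fosl1, called higher, were below 5 CPM in dsGFP, and Junb, called lower, was below 5 CPM in dsNat10. Each of these passed only through the library where it is high. With no filter, 2 of the 6 had a ratio below 1, against 58.0% of the 12836 genes. Jun had 1866 reads in dsNat10 and 547 in dsGFP and was 3.45-fold higher (3.13 to 3.80). Jund was 2.61-fold higher (2.13 to 3.21), Fosl1 4.14-fold higher (3.39 to 5.08) with fractional counts, and Junb 2.63-fold lower (2.02 to 3.45).

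Upstream, 17 of 22 Hippo genes passed the mean filter, with a median log2 ratio of -0.09. Of these 17, 4 (23.5%) were called lower and 5 (29.4%) higher, against 15.3% and 15.2% of all genes tested. The list shares Lats2, Amotl2 and Ptpn14 with the target signature, so the tallies are not separate. Lats2 counts as higher in each, and Amotl2 is the median gene of each. The upstream tally rests in large part on the filter. Frmd6, Wwc1 and Taok2, called lower, were below 5 CPM in dsNat10. Ajuba, Taok3 and Amotl1, called higher, were below 5 CPM in dsGFP. Each of these passed only through the library where it is high, and Taok2 and Amotl1 were named after their values were seen. With no filter, 14 of the 22 (63.6%) had a ratio below 1, against 58.0% of the 12836 genes. Of the 22, 4 (18.2%) were at 0 in dsNat10, against 20.7% of all genes. Frmd6, a membrane-bound activator of the pathway, had 1 read in dsNat10 and 921 in dsGFP, 912-fold lower with a very wide counting interval (163 to 36045). Wwc1, another activator, had 0 reads against 554, and Taok3, a kinase that acts on the Hippo kinases, had 555 against 75 (7.48-fold higher, 5.87 to 9.65). Ajuba, an inhibitor of the Lats kinases, had 904 against 40. Stk3, one of the Hippo kinases themselves, named after its value was seen, had 1134 against 504 and was 2.27-fold higher (2.04 to 2.53). Nf2, the most abundant of the list, had 3098 against 3370.

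Of 13 genes for the retention and breakdown of Yap1 protein, 11 passed the mean filter. None of them was called lower and 1 (9.09%) was called higher, against 15.3% and 15.2% of all genes tested, with a median log2 ratio of 0.17. They are abundant, with a median of 341 CPM against 35.7 CPM over all genes tested. That gene, Fbxw11, is a substrate receptor of the ubiquitin ligase that marks Yap1 for breakdown, with 3519 reads in dsNat10 and 1144 in dsGFP (3.11-fold higher, 2.91 to 3.32). Its paralogue Btrc, named after its value was seen, had 30978 and 26500 reads and differed by 1.18-fold. The Ywha proteins and Sfn hold phosphorylated Yap1 in the cytoplasm. Sfn, the most abundant, had 1850 TPM in dsNat10 and 2366 TPM in dsGFP, Ywhag was 1.79-fold lower (1.69 to 1.88) and Ywhah 1.32-fold higher (1.27 to 1.37), all short of the size rule.

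**Figure D5:**
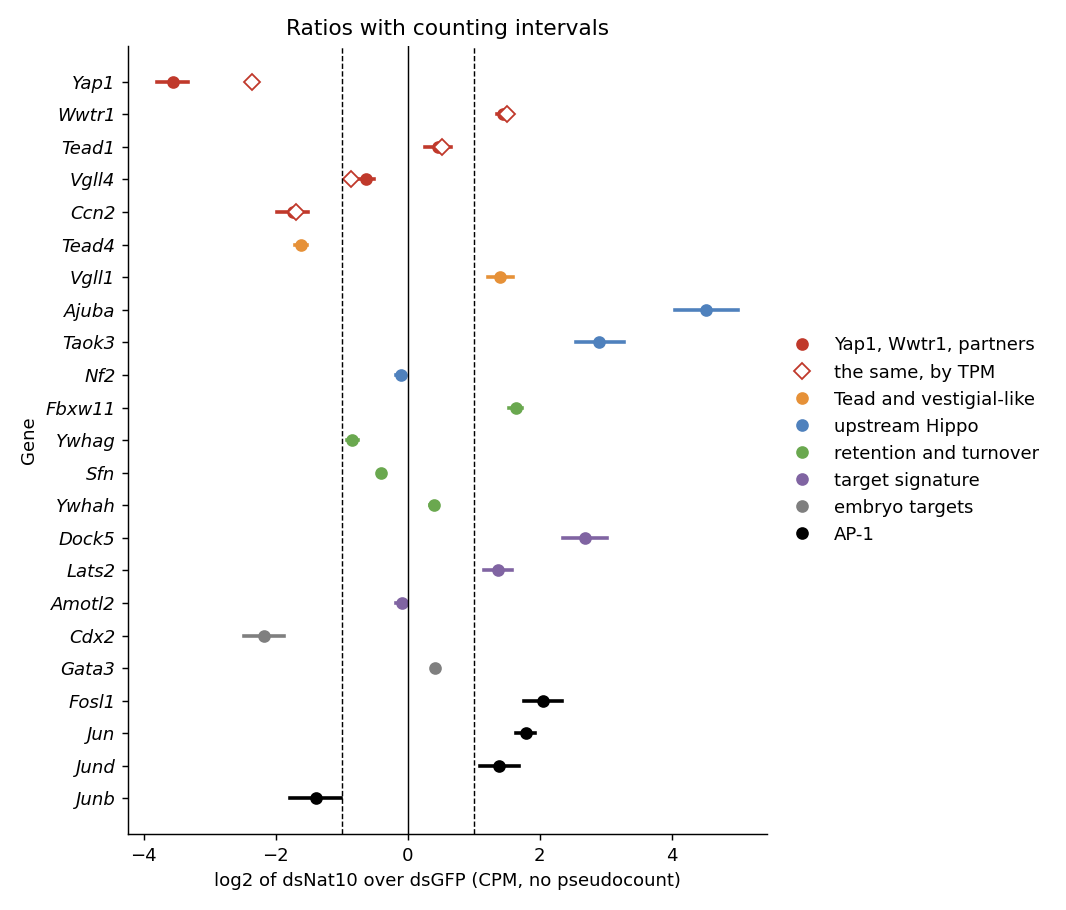
Log2 ratio of dsNat10 over dsGFP in CPM without pseudocount (horizontal axis) for 5 of the 6 genes and the named pathway genes with more than 3 reads in each library (rows), with bars for 95% counting intervals, open diamonds for ratios in TPM, and dashed lines at 1 in either direction. Yap1 is far left in reads and less so in TPM, Wwtr1 is right of the dashed line, Ajuba lies farthest right, and of the retention and turnover genes shown only Fbxw11 passes a dashed line.

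The genes nearest in their pair of levels were found by Euclidean distance in log2 of CPM plus 1 over the 2 libraries, which rests on 2 values per gene. Nearest to Yap1 were Eef1aknmt (164 reads in dsNat10 and 1995 in dsGFP), Dhx38 (154 and 2095) and Atp6v0a1 (162 and 1688). Nearest to Wwtr1 were Taf1a (3523 and 1339), Ep400 (3512 and 1282) and Ier2 (3428 and 1327). Nearest to Ccn2 were Nppb (188 and 656), Eif2s3y (193 and 640) and Rnf26 (209 and 646).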

How the data were processed

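RNA was measured in 1 dsNat10 and 1 dsGFP library of mouse morulae. Per the labels, polyadenylated RNA was prepared by the SMART-seq2 protocol, and the submitters' processing notes name Trim Galore, HISAT, HTSeq and the build GRCm38, without versions. The authors deposited estimated counts, FPKM and TPM values, and no source used here says how gene length was set. Fractional estimated counts (23.2% of genes) are not what HTSeq gives by default. Estimated counts were rounded and scaled to CPM with TMM in edgeR 4.0.16 (R 4.3.3). Intervals are exact (Clopper-Pearson) for ratios and shares, and exact Poisson for TPM levels, where they are moved onto that scale. For ratios of summed TPM, the interval of the pooled reads is moved onto that scale. It is approximate, since TPM weights genes by length. All intervals cover counting error only, since reads amplified by PCR and lacking molecular identifiers are not independent molecules. The size rule was tested on simulated counts with counting noise only, which says nothing of the spread between separate pools.

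Named are the 6 genes, up to 4 genes of each pathway list with the largest log2 ratio in size among those with a mean of 5 CPM or more, and the most abundant one, and the 3 nearest genes of Yap1, Wwtr1 and Ccn2. Members and lists were chosen with earlier results of these data known. Coordinates came from RefSeq (GRCm38.p6), matched by Entrez identifier for 12800 of 12836 genes. Scaling, pseudocount, filter and unit were varied.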

Additional observations from a re-analysis of the deposited data

How the results depend on the processing

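Yap1 and Wwtr1 kept their direction and their call under plain totals, DESeq2 1.42.0 size factors, pseudocounts of 0.5 and 5 CPM, and the deposited TPM and FPKM. Over these settings the log2 ratio ranged from -3.45 to -2.11 for Yap1, from 1.36 to 1.46 for Wwtr1 and from -1.68 to -1.24 for Ccn2. Those of Tead1 (0.29 to 0.45) and Vgll4 (-0.83 to -0.56) stayed short of the size rule. With the filter at 20 CPM, 1 gene was called lower in place of 2, because Ccn2 was under that filter. The median log2 ratio moved from -0.62 to -1.16 in TPM, to -1.14 in FPKM and to -0.49 with no filter, where Tead2 enters. In TPM and FPKM it covers 4 genes in place of 5, because Tead1 was under the filter there. The co-activator sum per Tead sum differed by 1.63 on the log2 scale in TPM and by 1.48 in CPM, an alternative chosen after seeing the data. The number of genes called lower among all genes was 836 of 7445 in TPM and 693 of 6655 in FPKM, against 1334 of 8738, and with no filter 3252 of 12836. Called higher were 1009 of 7445 in TPM and 712 of 6655 in FPKM, against 1330 of 8738, and with no filter 1681 of 12836. The filter at 20 CPM left 524 higher and 502 lower of 5746 genes tested. The shorter motif was in 12.6% of promoter windows and the longer in 3.25%. No paired analysis was possible because each group has 1 library. Genes of few reads, Tead2 above all, are limited by depth.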
